A study of Homo sapiens with 2 samples.

Results

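The 10 genes described here belong to protein folding in the endoplasmic reticulum (ER) and to the unfolded protein response, and they were followed in HT1080 cells plated on a fragment of laminin. They were the ER chaperone, cochaperone and quality control genes HSPA5, HSP90B1, CALR, PDIA4, DNAJB9, SDF2L1 and HERPUD1, and the regulators XBP1, ATF6 and ERN1, chosen by name as ER chaperones and as sensors or targets of the XBP1 and ATF6 branches. All 10 were measured, out of 18417 genes with a level on the arrays, and each was represented by a single sequence of the array. HT1080 is an established human fibrosarcoma line, grown here in DMEM with fetal calf serum. Cells of the control group were kept for 24 h in wells coated with bovine serum albumin (BSA), and cells of the treated group for 24 h in wells coated with rLCC111, a recombinant trimer of the coiled-coil domain of laminin-111. There was 1 sample and 1 GeneChip Human Gene 1.0 ST array per coating, so no value below has a replicate error, no difference was tested, and no p-value is given. Values are log2 expression levels from the RMA algorithm, and a difference is the level on rLCC111 minus the level on BSA.

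Proteins that enter the secretory pathway fold in the lumen of the ER with the help of chaperones, lectins and disulphide isomerases. When unfolded protein accumulates, the membrane sensors IRE1, ATF6 and PERK are released from the chaperone BiP and start the unfolded protein response. IRE1 splices XBP1 mRNA so that it encodes an active transcription factor, ATF6 is cut in the Golgi to free its own, and PERK slows translation and favours synthesis of ATF4. XBP1 and ATF6 then raise the genes of chaperones and of ER-associated degradation (ERAD), the route by which misfolded proteins are returned to the cytosol and destroyed.

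The promoters of these genes are known for the ER stress element, ERSE, through which NF-Y and ATF6 or XBP1 act. RefSeq promoters on GRCh38.p14, 250 bases before to 50 bases after a gene start, were available for all 10 genes, at 12 starts. They were searched on both strands for exact matches to ERSE, CCAAT and CCACG with 9 bases between them, and to ERSE-II, ATTGG and CCACG with 1 base between them. ERSE was found for 4 of the 10 genes and ERSE-II for 2 others. Of all 27305 genes with promoters, 0.0916% held ERSE and 0.0696% held ERSE-II. Counted by promoter, 0.0769% of all 35116 held ERSE and 0.0541% held ERSE-II. The 10 genes were chosen partly as targets of XBP1 and ATF6, so this contrast is no independent result. The stretches that carry these elements, in 6 of the 10 genes, are shown so that the expression values can be read beside them. They are written 5′ to 3′ on the strand of the gene, each ends before the gene start, and capitals mark the element.
HSPA5, chr9:125241371-125241429, - strand: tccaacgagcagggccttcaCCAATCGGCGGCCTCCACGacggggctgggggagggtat
HSP90B1, chr12:103930196-103930359, + strand: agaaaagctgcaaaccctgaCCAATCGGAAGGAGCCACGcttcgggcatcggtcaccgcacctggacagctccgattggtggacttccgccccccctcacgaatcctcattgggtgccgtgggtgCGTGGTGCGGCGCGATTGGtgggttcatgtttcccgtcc
CALR, chr19:12938364-12938422, + strand: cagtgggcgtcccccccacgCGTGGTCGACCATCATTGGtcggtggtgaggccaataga
XBP1, chr22:28800583-28800641, - strand: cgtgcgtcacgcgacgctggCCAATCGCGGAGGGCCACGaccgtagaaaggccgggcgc
HERPUD1, chr16:56932005-56932055, + strand: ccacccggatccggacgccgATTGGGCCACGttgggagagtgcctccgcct
SDF2L1, chr22:21642094-21642144, + strand: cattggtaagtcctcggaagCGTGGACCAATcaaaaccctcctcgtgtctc
In HSPA5, XBP1, HERPUD1 and at 1 of the 2 sites of HSP90B1 the element reads in the direction of the gene, and in CALR, SDF2L1 and at the other site of HSP90B1 it reads on the opposite strand. The XBP1 element, found at 1 of the 2 starts of this gene, lay nearest to its start, from base -52 to base -34, and the CALR element farthest, from base -225 to base -207. DNAJB9 and PDIA4 held the CCACG motif without a full element. This motif, which is also part of both elements, occurred in 38.1% of all promoters. ERN1 and ATF6 held none of these letters in their windows. The core of the XBP1 element UPRE, TGAC followed directly by GTGG, was in no promoter of the 10 genes and in 0.729% of all promoters. A match describes the letters of a window and does not show that a factor was bound.

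**Figure D1:**
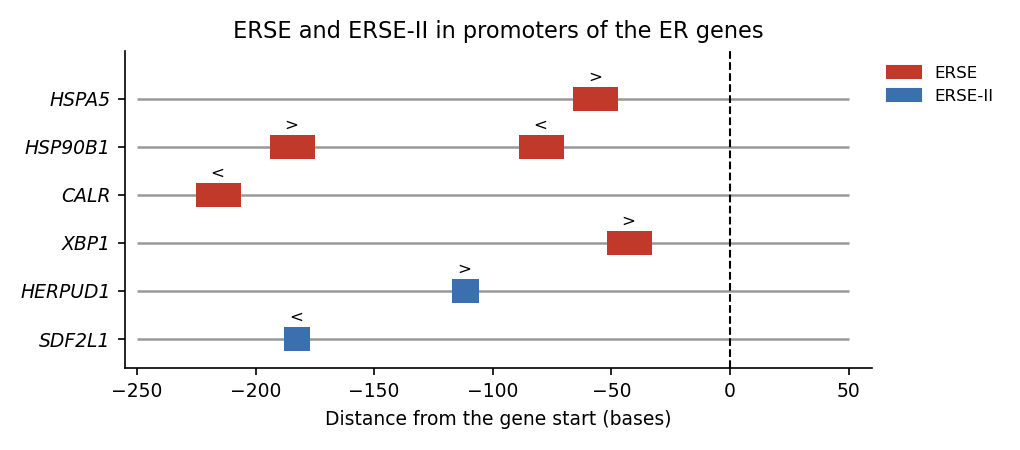
Position of exact ERSE (red) and ERSE-II (blue) matches in the promoters of 6 genes, as distance in bases from the gene start (dashed line); arrowheads give the strand, > for that of the gene. HSP90B1 has 2 ERSE matches and each other gene 1 match, all before the start.

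On rLCC111 the mRNA of XBP1 was lower and that of the other 9 genes stayed close to its level on BSA. XBP1 had a fold of 0.693, and the folds of the other 9 genes ran from 0.899 to 1.10. At a threshold of 1.3-fold, 1 of the 10 genes was lower, against 2.38% of all genes, and 0 were higher, against 3.21% of all genes. Of genes above the level of unexpressed genes described next, which all 10 are, 3.02% were lower and 3.93% higher by this threshold. None was 2-fold different, against 0.0869% of all genes that were at least 2-fold lower and 0.239% at least 2-fold higher. The median difference of the 10 genes was 0.03, and that of all 18417 genes was 0.00. In RNA from whole wells, less mRNA per cell and a change in the mix of cells cannot be told apart.

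Each of the 10 genes was brighter on both arrays than genes that a fibrosarcoma line is not thought to use. As a reference for unexpressed genes, 379 genes of olfactory, taste and related sensory receptors were used. The 95th percentile of their mean levels was 6.62, and each of the 10 genes lay above this limit on both arrays. The sensory receptor genes had differences centred on 0.00, their median, with an SD of 0.18 across genes. Of these 379 genes, 0 were at least 1.3-fold lower and 13 at least 1.3-fold higher. The shares of all genes were 2.38% lower and 3.21% higher, so genes held to be unexpressed also passed this threshold as higher. The array medians were 7.04 on BSA and 7.12 on rLCC111. Markers of mesenchymal cells, VIM, CD44, FN1, LGALS1 and FOSL1 among them, were above the limit for 5 of 6 genes. Of these markers FN1 had a difference of 0.49 and FOSL1 of -0.35, and those of VIM, CD44, LGALS1 and S100A4 ran from -0.18 to 0.02. Their part in the results was not tested. Above it were also 1 of 4 epithelial markers, KRT19, 1 of 4 blood markers, CD14, and 0 of 4 endothelial markers.

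**Figure D2:**
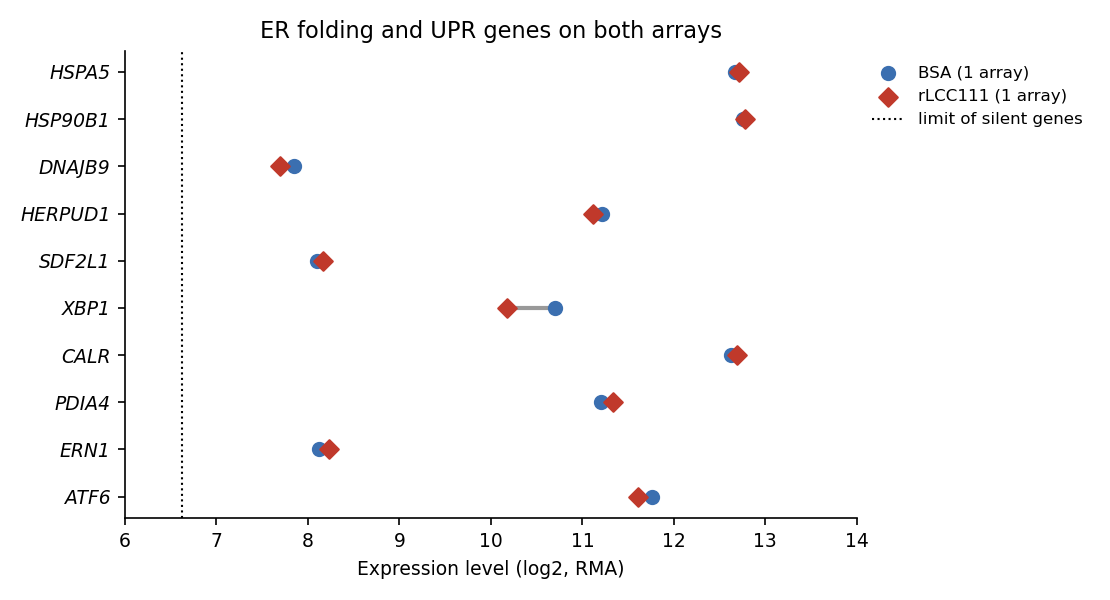
Log2 expression level of the 10 genes on the BSA array (blue circles) and the rLCC111 array (red diamonds), 1 array per coating, with the limit of 6.62 as a dotted line. Symbols of a gene nearly coincide except for XBP1, at 10.70 on BSA and 10.18 on rLCC111; levels of different genes come from different probes and have no common scale.

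Among the chaperones, HSPA5 (gene ID 3309) encodes BiP, the central chaperone of the ER lumen and the partner that holds the sensors inactive. It was at 12.67 on BSA and 12.71 on rLCC111, with a difference of 0.04. HSP90B1 (gene ID 7184) encodes endoplasmin, the HSP90-type chaperone of the ER, which folds integrins and Toll-like receptors. It was at 12.76 on BSA and 12.78 on rLCC111, with a difference of 0.02, the smallest in size of the 10 genes. CALR (gene ID 811) encodes calreticulin, a lectin chaperone of glycoproteins and a store of calcium, and was at 12.63 on BSA and 12.69 on rLCC111, with a difference of 0.06. These abundant genes, each with at least 1 ERSE in its promoter, were thus at nearly the same level on both arrays. The sign of their small differences turned when the arrays were centred on their medians, which lowered every difference by 0.08. The values were then -0.04 for HSPA5, -0.06 for HSP90B1 and -0.01 for CALR. PDIA4 (gene ID 9601), a disulphide isomerase, was at 11.21 on BSA and 11.34 on rLCC111. Its difference of 0.13 was the highest of the 10 genes and stayed above 0 under each scaling, from 0.05 to 0.18.

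The cochaperones and the degradation factor differed little as well. DNAJB9 (gene ID 4189) encodes ERdj4, a cochaperone that acts on BiP and a known target of spliced XBP1. It was at 7.85 on BSA and 7.70 on rLCC111, with a fold of 0.900, and its difference of -0.15 became -0.23 after median centring and after quantile normalization. SDF2L1 (gene ID 23753), a partner of ER cochaperones that limits aggregation, was at 8.10 on BSA and 8.16 on rLCC111. Its difference of 0.06 turned to -0.02 after median centring and after quantile normalization. HERPUD1 (gene ID 9709), which organises the ubiquitin ligase complex of ERAD and is induced by ER stress, was at 11.22 on BSA and 11.12 on rLCC111, with a difference of -0.10. None of these values reached 1.3-fold under any scaling.

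Of the regulators, XBP1 alone was past 1.3-fold. XBP1 (gene ID 7494) was at 10.70 on BSA and 10.18 on rLCC111, with a difference of -0.53, which lay 0.37 below that of the next lowest of the 10 genes. ERN1 (gene ID 2081), which encodes the sensor and RNase IRE1 alpha that splices XBP1 mRNA, was at 8.12 on BSA and 8.23 on rLCC111, with a difference of 0.11. ATF6 (gene ID 22926) was at 11.77 on BSA and 11.61 on rLCC111, with a difference of -0.15. XBP1 was the lowest of these regulators, while ERN1 was slightly higher and ATF6 slightly lower, in the same direction under each scaling. The scalings reuse the same 2 arrays and are no replicates. As deposited, the differences of ERN1 and ATF6 were smaller in size than the SD of 0.18 across sensory receptor genes. That of ERN1 was 0.03 after median centring and after quantile normalization. The value for XBP1 covers its mRNA as a whole, so the spliced and unspliced forms, and with them the activity of IRE1, are not resolved.

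The place of XBP1 among all genes was as follows. Of the 12700 genes with their brighter array above the limit, 124 had a difference as low as that of XBP1 or lower. These genes were split by mean level into 4 bins of equal size. Among the 3175 genes of the brightest bin, from 10.19 to 13.85, which holds XBP1, the middle 95% of differences ran from -0.37 to 0.33, and XBP1 lay below this range. The other 9 genes lay inside the range of the bin that holds them. The difference of XBP1 was -0.61 after median centring, -0.49 after removal of a lowess trend and -0.50 after quantile normalization, past 1.3-fold each time. At a threshold of 1.5-fold, which 0.543% of all genes passed as lower, XBP1 was not counted as deposited. Its level was 1.44-fold higher on BSA than on rLCC111. It was past 1.5-fold after median centring, which lowered every difference, and the median of all genes, by 0.08.

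**Figure D3:**
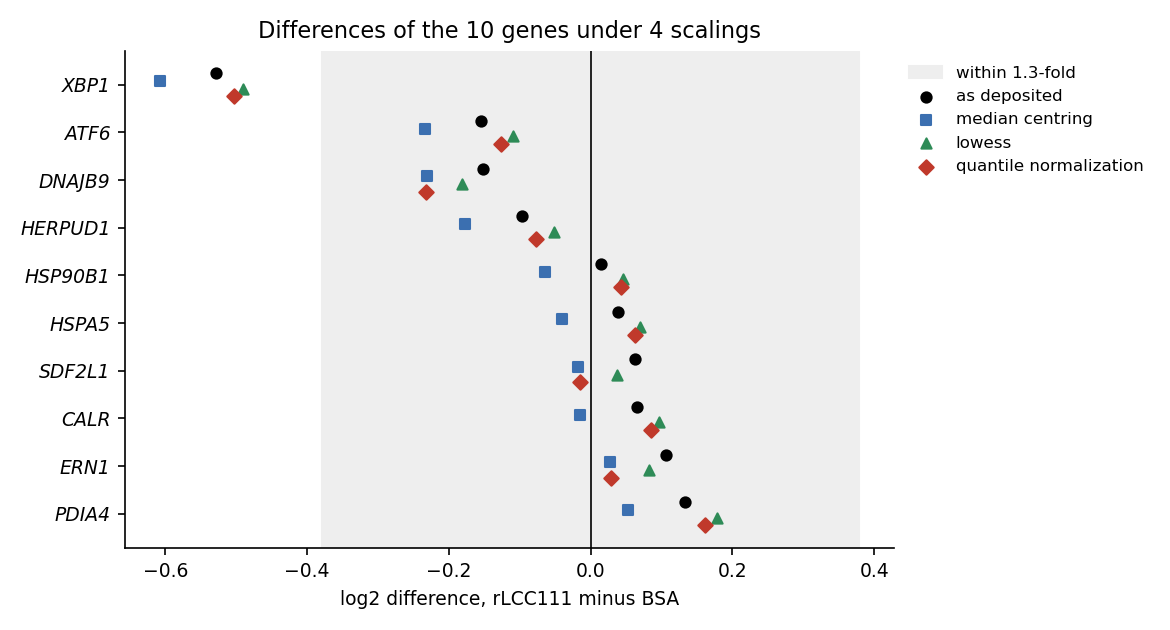
Log2 difference, rLCC111 minus BSA, of the 10 genes as deposited (black) and after median centring (blue), lowess (green) and quantile normalization (red); the grey band marks 1.3-fold. XBP1, from -0.61 to -0.49, is outside the band under each scaling, and the other 9 genes are inside it, 4 of them (HSPA5, HSP90B1, CALR and SDF2L1) with a sign that turns.

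Other genes of the ER were measured from 6 lists of 121 genes, 114 of which had a level of their own. Of these 114 genes, 0 were at least 1.3-fold lower on rLCC111 and 3 were at least 1.3-fold higher, with a median of 0.00 and a range from -0.32 to 0.49. The share at least 1.3-fold higher was 2.63%, beside 3.21% of all genes, and 2.38% of all genes were at least 1.3-fold lower. Among 14 other chaperones the median was 0.04, and UGGT2, a paralogue of the glucosyltransferase that senses misfolded glycoproteins, was the member past 1.3-fold, with a fold of 1.34. It was below 1.3-fold after median centring and after quantile normalization. UGGT1 had a fold of 1.14, HYOU1, a nucleotide exchange factor of BiP, 1.11, and DNAJB11, a BiP cochaperone, 1.05. The other 13 genes of this list were within 1.3-fold of their level on BSA.

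Enzymes of disulphide formation and proline isomerisation had a median of -0.03 over 19 genes, with 0 past 1.3-fold in either direction. Of all genes, 2.38% were at least 1.3-fold lower and 3.21% higher, so a count of 0 in a list this short says little. QSOX1, a secreted sulphhydryl oxidase, had a fold of 0.798, TMX2 0.861 and FKBP14 0.861, while the membrane-bound thioredoxin TMX4 had 1.19. After median centring QSOX1 alone passed 1.3-fold, as a lower gene. Among 22 ERAD genes besides HERPUD1 the median was 0.02 and again 0 passed 1.3-fold, beside the same shares of all genes. SEL1L, the adaptor of the ligase that HERPUD1 serves, had a fold of 1.19, DERL2, a channel component, 1.15, the lectin OS9 1.14 and UBXN4 0.846.

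Of 13 other regulators, CREB3L1, an ER-anchored transcription factor related to ATF6 that drives secretory and collagen genes, had the largest difference. It was at 7.75 on BSA and 8.24 on rLCC111, with a fold of 1.41, and was the gene of this list past 1.3-fold. NFYB and NFYC, subunits of the factor that binds the CCAAT part of ERSE, had folds of 0.904 and 0.906, and WFS1, an ER membrane protein known as a target of XBP1, 0.914. Genes named after their values were seen, for their place next to the sensors, are the ligase RTCB, which joins the XBP1 exons, at a fold of 0.964, the ATF6 proteases MBTPS1 and MBTPS2 at 1.03 and 0.970, and EIF2AK3, which encodes PERK, at 1.05. The genes whose products process XBP1 and ATF6 were therefore within 1.3-fold, and so were NFYB and NFYC.

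Upstream and downstream of folding, values were similar on both arrays. Among 28 genes of the translocon, signal recognition, signal peptidase and N-glycan transfer the median was -0.01 and 0 passed 1.3-fold. The shares of all genes were 2.38% lower and 3.21% higher, so this count of 0 says little. SSR3, of the translocon-associated complex, had a fold of 0.856, and SRP68, SRP72 and SRP9, of the signal recognition particle, had 0.873, 0.874 and 0.886. Among 18 genes of ER export and retrieval the median was -0.01. KDELR3, a receptor that returns chaperones such as BiP to the ER, was at 9.80 on BSA and 10.19 on rLCC111, with a fold of 1.31, and after median centring it was below 1.3-fold. MCFD2, SEC23B and SAR1B had folds of 0.857, 0.873 and 0.884.

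Genes listed for the PERK-ATF4 arm were lower on rLCC111. Of these 17 genes, 11 were at least 1.3-fold lower on rLCC111, which is 64.7% beside 2.38% of all genes. Of the 17, 0 were at least 1.3-fold higher. The list and the threshold were chosen with earlier results of these data known, so this share is a description only. The median was -0.50, with each of the 17 differences below 0, except that VEGFA, at -0.02, stood at 0.02 after lowess. CHAC1, which degrades glutathione, was at 9.59 on BSA and 8.50 on rLCC111, with a fold of 0.468. PSAT1, of serine synthesis, had a fold of 0.563, asparagine synthetase, ASNS, 0.575, and SESN2, an inhibitor of mTORC1, 0.582. The difference of XBP1, -0.53, was 0.03 below the median of this arm, whereas the medians of the arm and of the 10 genes lay 0.53 apart. The median of the arm is the value of the brighter sequence of ATF4, so the gap of 0.03 rests on that sequence. With the sequences of a gene averaged, the median of the arm was -0.42. ATF4 itself, which like VEGFA was picked to be named after its values were seen, is represented by 2 sequences. These disagreed: the brighter had a difference of -0.50 and the other 0.12. The difference between this list and the 10 genes was not tested, since there was 1 array per coating. The arm is named as it was listed, and a part of PERK in these lower values was not tested. The activity of PERK was not measured, and EIF2AK3, the gene of PERK, had a fold of 1.05.

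Chaperones outside the ER gave a further comparison. Of 15 cytosolic and mitochondrial chaperone genes, 0 were at least 1.3-fold lower and 1, HSPB1, was at least 1.3-fold higher, from 7.41 on BSA to 7.90 on rLCC111, with a fold of 1.41. This share of 6.67% is a single gene, beside 3.21% of all genes, and 2.38% of all genes were at least 1.3-fold lower. The median was -0.12. DNAJB1, a heat shock cochaperone, had a fold of 1.13, HSP90AA1, the cytosolic relative of HSP90B1, 0.893 and HSPA6, a strictly heat-inducible relative of HSPA5, 0.857 near the limit of unexpressed genes.

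**Figure D4:**
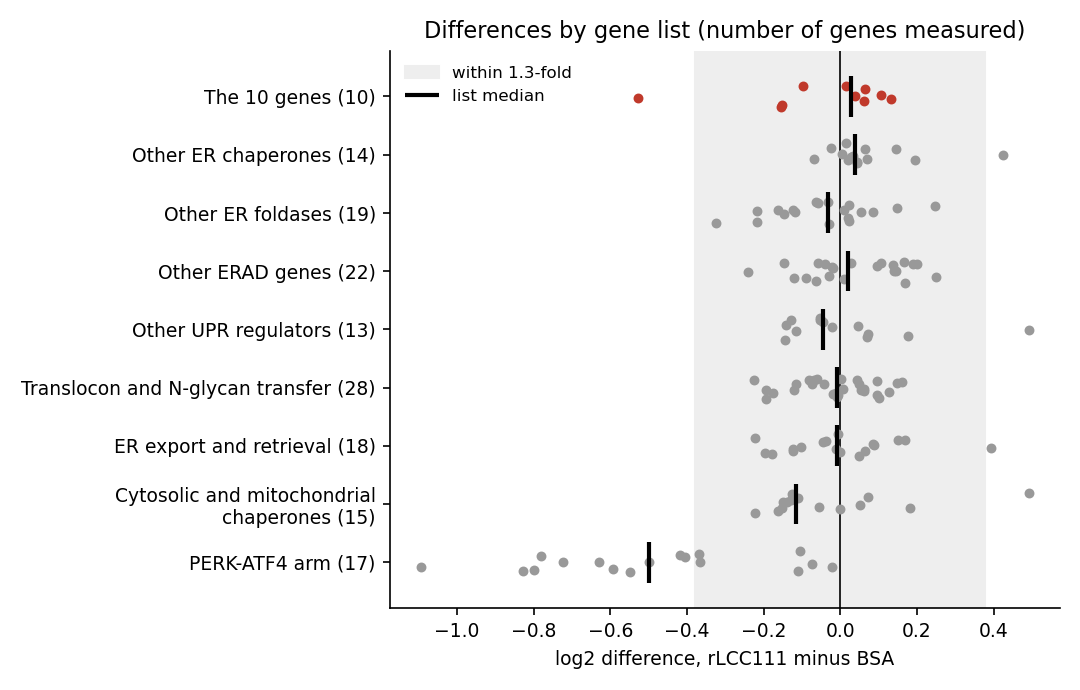
Log2 difference, rLCC111 minus BSA, of each gene (points) in the list of 10 and in 8 lists of other genes, with the median of each list (black bar) and a grey band for 1.3-fold. Medians of the ER lists lie between -0.04 and 0.04, and XBP1 is the single red point outside the band; the PERK-ATF4 arm has its median at -0.50.

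The promoter elements also picked genes by the letters of their promoters, whether or not they were on a list. The elements were searched because they are known for ER genes, and 11 of the 36 measured genes that hold one are on the lists. An ERSE or ERSE-II was found for 44 genes in all, of which 36 had a level on the arrays, 6 of the 10 genes and 30 others. The 30 others had a median of 0.01 and a range from -0.52 to 0.26, with 1 at least 1.3-fold lower, which is 3.33% beside 2.38% of all genes, and 0 at least 1.3-fold higher. The lower gene, NAV2, a neuron navigator with an ERSE-II, was at 9.49 on BSA and 8.97 on rLCC111. Of the 30, 5 are on the lists of other ER genes, and their folds ran from 0.921 for the oxidase ERO1B, through CANX, PDIA6 and CRELD2, to 1.11 for HYOU1. Further examples, named after their values were seen, are SERP1, which stabilises ER membrane proteins, with a fold of 0.932, FICD, which modifies BiP, with 0.944, and ALG12, a mannosyltransferase of N-glycan assembly, with 1.06. Of the 24 with their brighter array above the limit, the median was also 0.01. Among the 36 genes with either element, XBP1 and NAV2 were the 2 past 1.3-fold, both of them lower. This is 5.56%, beside 2.38% of all genes, and it rests on 2 genes, of which XBP1 is a member of the 10.

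**Figure D5:**
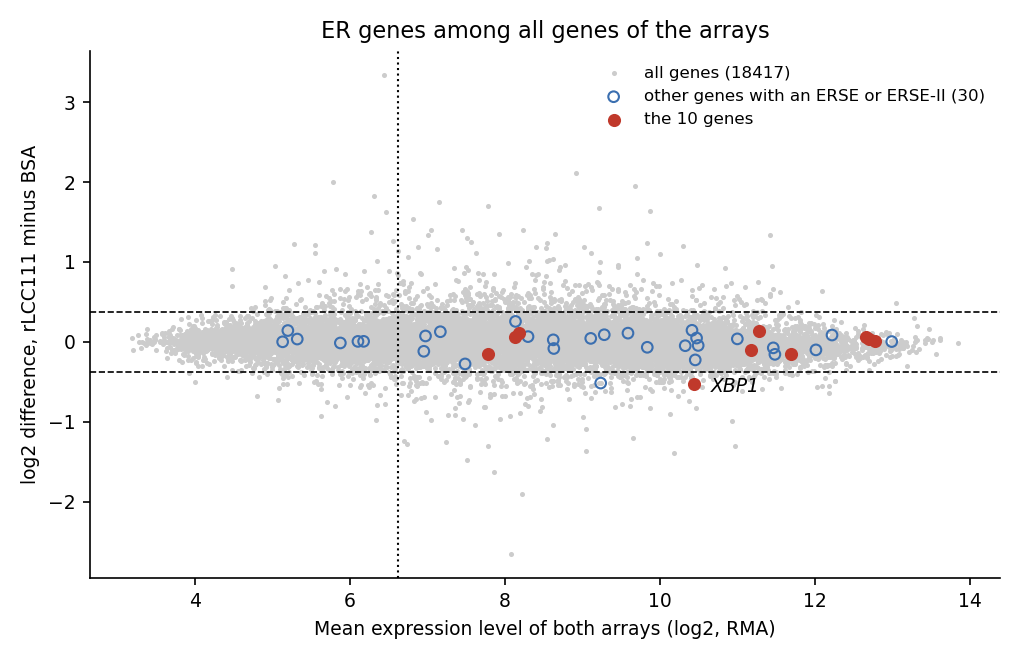
Log2 difference, rLCC111 minus BSA, against the mean level of both arrays for 18417 genes (grey), the 10 genes (red) and 30 other genes with an ERSE or ERSE-II (blue circles); dashed lines mark 1.3-fold and the dotted line the limit of 6.62. XBP1, at -0.53, and 1 blue circle, NAV2, at -0.52, lie below the lower dashed line.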

How the data were processed

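Total RNA of 1 sample per coating was hybridised to GeneChip Human Gene 1.0 ST arrays. Log2 expression levels were made from the scans by the authors, using RMA in Affymetrix Expression Console; the software version and settings are not given in the sources used here, and the deposited log2 levels were used unscaled. RMA normalizes between arrays, yet the array medians still differed by 0.08, close to the size of most differences reported. The precision is limited by the number of arrays. The methods name limma, which 1 array per coating leaves without a residual degree of freedom, so no test was run.

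Sequences were named from the platform annotation, and symbols were brought up to date by gene identifier in RefSeq (GRCh38.p14). Of 33297 sequences, 19460 had 1 symbol, 1754 several and 12083 none. A gene was given by its 1-symbol sequence with the highest mean level. The array's build is not named, so coordinates are those of the RefSeq promoters only. Members, lists and thresholds were chosen with earlier results of these data known. Named genes are the 10 genes and, per list, genes at least 2-fold different and the 4 largest differences above the limit of unexpressed genes; others are said to be chosen later. Markers were measured for 6 of 6 mesenchymal, 4 of 5 epithelial, 4 of 5 blood and 4 of 4 endothelial genes. Alternatives were median centring, lowess (span 0.2, 3 iterations), quantile normalization, the mean over sequences, sequences with several symbols, filters on level and 1.5-fold. Counting, scaling and motif search were tested on simulated data. Python 3.11.15, numpy 2.4.6, pandas 2.3.3, statsmodels 0.14.6 and matplotlib 3.10.9 were used.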

Additional observations from a re-analysis of the deposited data

How the results depend on the processing

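No paired analysis was possible because there was 1 array per coating, and for the same reason no replicate could be left out. The median of the 10 genes ran from -0.05 to 0.04 over the settings tried, and the difference of XBP1 from -0.61 to -0.49. At 1.5-fold, 0 of the 10 genes were lower as deposited, although XBP1 passed this size after median centring, and 0.543% of all genes were lower and 1.08% higher. Median centring made 4.44% of all genes at least 1.3-fold lower and 2.02% higher, so that 68.7% of the genes past 1.3-fold were lower, against 42.6% as deposited and 57.8% after quantile normalization. After median centring, 0 of the other ER chaperones and 0 of the export genes were at least 1.3-fold higher, and 1 of the other foldases was lower. After quantile normalization, 0 of the other chaperones were higher. The median of the PERK-ATF4 arm ran from -0.58 to -0.42, the latter with sequences of a gene averaged, since the ATF4 sequences disagree. The number of its genes at least 1.3-fold lower ran from 10 to 13. The largest shift of the median of all genes by a scaling was -0.08. Values from 1 array per coating carry no replicate error, so no difference of the 10 genes, that of XBP1 included, can be told from the spread between samples.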

Other observations

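Some listed genes share their array sequences with other genes and were therefore left out of the counts. PDIA3, a glycoprotein-specific disulphide isomerase that works with calreticulin, has 2 sequences shared with its pseudogene PDIA3P1, with folds of 1.03 and 1.04. A sequence shared by TXNDC5 and its neighbours had a fold of 0.977. ATF6B, the paralogue of ATF6, has 2 sequences shared with TNXB, with folds of 0.996 and 0.980. The heat shock genes HSPA1A and HSPA1B share 5 entries, with folds from 1.02 to 1.08. All of these values were within 1.3-fold, beside the 10 genes other than XBP1.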
